A study of Mus musculus with 12 samples.

Results

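Of the 14675 gene rows in the deposited count table, 8 were the cholesterol synthesis genes Srebf2, Hmgcs1, Idi1, Fdps, Fdft1, Sqle, Msmo1 and Insig1. They were chosen by name, each symbol matched 1 Ensembl gene ID, and all 8 had counts in every column. RNA was measured in dorsal root ganglion (DRG) material of adult mice of the genotype RPL22HA+/+;Advillin-Cre+. In these mice Advillin-Cre, which acts in sensory neurons, switches on a form of ribosomal protein RPL22 that bears an HA tag, so that an anti-HA pull-down (IP) collects ribosome-bound RNA of these neurons (the RiboTag method), whereas input is total RNA, that of non-neuronal cells included. The treatment was AAV-shGpr151, a virus with a short hairpin RNA against Gpr151, either alone or together with AAV-e5'UTR (here called e5UTR). Input and IP of both treatments make 4 groups, each deposited as 3 columns. All 4 groups thus carried the tag, the Cre and the hairpin, and since a group without the hairpin was not analysed here, the knock-down of Gpr151 cannot be checked. The labels do not say what the e5UTR insert is. The series' design text speaks of neurons cultured after a preconditioning sciatic nerve injury and the protocol of freshly collected DRGs, and which of them was sequenced is not settled.

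Columns held 975403 to 985277 estimated counts in input and 1381220 to 1517685 in IP. The 3 columns of a group differed in total by at most 0.201%, and the median gene's chi-square between them was 1.08 to 1.12 times that from counting alone. A group's columns were therefore added up into 1 pool that counts as a single sample, although 7.24% to 7.72% of genes differed between columns at p under 0.05 (chi-square test). Levels are CPM, counts scaled to a common library size by the TMM method, with exact Poisson 95% intervals for pools. Ratios of pools have exact binomial (Clopper-Pearson) 95% intervals. These intervals cover counting error only. They may be too narrow even for that, since reads of amplified cDNA are not independent molecules. The neuronal marker Avil had 43 and 60 counts in input and 538 and 565 in IP, and was higher in IP (log2 1.97 ± 0.17 SE, adjusted p = 1.3e-06, edgeR).

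Cells build cholesterol from acetyl-CoA through the mevalonate pathway, which also supplies isoprenoids for protein prenylation, and then through squalene and a series of sterols. SREBP2, the protein of Srebf2, is a transcription factor held in the membrane of the endoplasmic reticulum; when sterols are low, the escort protein SCAP carries it to the Golgi, where it is cleaved, and the freed part switches on the genes of the pathway. INSIG1 retains SCAP and SREBP2 in the endoplasmic reticulum when sterols are plentiful, and Insig1 is itself a target of this pathway. Axons need cholesterol for membrane, made in the cell body or taken up from lipoproteins released by glia.

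The promoters are shown because SREBP and its partner factors act there. The RefSeq promoter table (build GRCm38.p6, 250 bases before to 50 bases after a gene's start) held 5 of the 8 members, Srebf2, Hmgcs1, Idi1, Msmo1 and Insig1. These were searched on both strands for the sterol regulatory element core TCACNCCAC, to which SREBP binds, and for CCAAT, the box of NF-Y, which is known to act with SREBP. The first motif was found in Hmgcs1 alone among the 5, at chr13:119690204-119690232 on the plus strand, with the motif in capitals and its first base at −137 from the start.
Hmgcs1: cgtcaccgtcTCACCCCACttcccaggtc
All 5 promoters held CCAAT, written ATTGG where it lies on the opposite strand. The match nearest before the start is shown in capitals for each gene, at chr13:119690296-119690320 for Hmgcs1, chr13:8885582-8885606 for Idi1, chr8:64733619-64733643 for Msmo1 (minus strand), chr15:82147124-82147148 for Srebf2 and chr5:28071186-28071210 for Insig1 (the others on the plus strand).
Hmgcs1: cccgcctctcATTGGctgaaagcgg
Idi1: ccaaggtgccATTGGctggcgaccg
Msmo1: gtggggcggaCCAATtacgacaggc
Srebf2: tcgcgcgccgATTGGctaatgcaag
Insig1: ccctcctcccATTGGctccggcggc
Of 32851 promoters of this length in the table, 1.24% held TCACNCCAC and 37.4% held CCAAT. The Sp1 box GGGCGG was in all 5 (35.7% of all promoters) and the E-box CACGTG in Insig1 only (7.15% of all promoters). Among 13 other enzymes of the pathway in the table, 0 held TCACNCCAC, 12 held CCAAT, 12 GGGCGG and 3 CACGTG. These are counts of genes with a match in any of their promoters. Counted in that way, 1.44% of 27025 genes held TCACNCCAC, 41.1% CCAAT, 38.2% GGGCGG and 8.09% CACGTG. A match describes letters in this window and is not a measured binding site.

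IP was compared with input to ask which of these mRNAs were higher or lower in neuronal ribosome-bound RNA than in total RNA. The set was divided. Sqle, Hmgcs1 and Fdps were higher in IP, Srebf2, Msmo1, Insig1 and Idi1 were lower, and Fdft1 did not pass the test. The test was edgeR's quasi-likelihood test of the 4 pools, 2 IP against 2 input, with Benjamini-Hochberg (BH) adjustment over 11343 tested genes and a threshold of 0.05, and all 8 members passed its filter on low counts. Of all tested genes 28.0% were called higher and 32.2% lower (60.2% either way), against 3 and 4 of the 8 members. The 2 pools of a fraction differ in e5UTR and are not replicates of 1 condition, so the fit took the e5UTR difference as part of their spread. Adjusted p-values and SEs in this comparison are from this fit unless another is named.

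The scale of this comparison is not fixed by the data. TMM scaling set the median gene near equality (median log2 0.05), whereas scaling by library total moved all ratios up by 0.89 at the median and changed the calls from 3178 higher and 3652 lower to 6433 higher and 2365 lower. On that second scale Idi1 was at log2 0.08 (adjusted p = 0.75) and Insig1 at −0.21 (adjusted p = 0.31), so Idi1 has no fixed direction and the call of Insig1 rests on the scaling. Sqle (2.78), Hmgcs1 (1.85) and Fdps (1.22) stayed above 0, Srebf2 (−1.505) and Msmo1 (−1.79) stayed below it, and Fdft1 (1.27) passed the test (adjusted p = 1.7e-05).

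**Figure D1:**
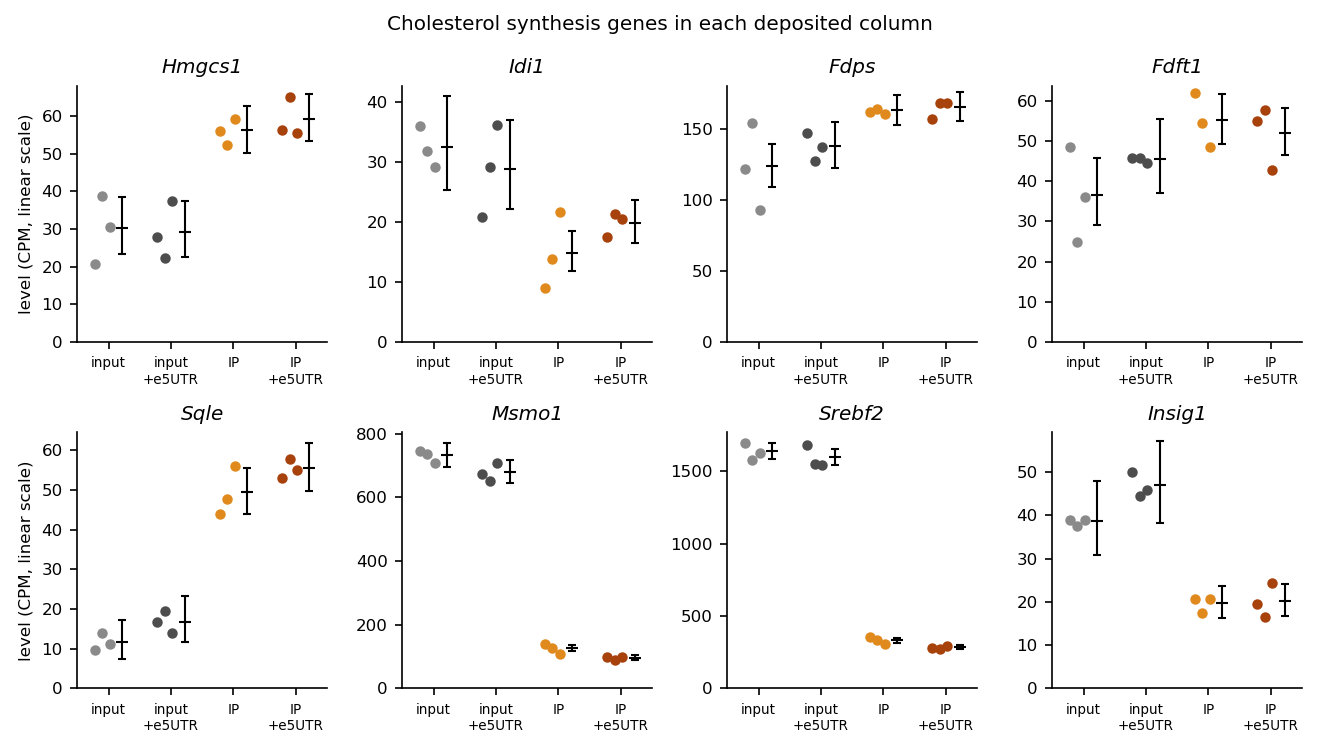
Level in CPM (linear axis from 0) of the 8 cholesterol synthesis genes in the 4 groups. Points are the 3 deposited columns of a group, and the black mark with its bar is the pool with its exact Poisson 95% interval. Sqle and Hmgcs1 lie higher in every IP column than in any input column, while Srebf2 and Msmo1 lie at 1542 and 653 CPM or more in input and at 354 and 140 CPM or less in IP.

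Among the regulators, Srebf2 read 1219, 1138 and 1172 counts in the input columns under the hairpin alone and 1209, 1113 and 1109 under hairpin plus e5UTR. In IP the counts, in the same order, were 668, 624 and 574, then 573, 564 and 604. Every input column, at 1542 to 1691 CPM, lay above every IP column, at 274 to 354 CPM. Srebf2 was at 0.19 times the input level in IP (log2 −2.40 ± 0.12 SE, adjusted p = 6.9e-09), with pool ratios of 0.202 (95% interval 0.191 to 0.214) without e5UTR and 0.178 (0.168 to 0.188) with it.

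Insig1 read 28, 27 and 28 counts in the input columns under the hairpin alone and 36, 32 and 33 under hairpin plus e5UTR. IP columns held 39, 33 and 39, then 40, 34 and 50. Its input columns held 37.5 to 50.0 CPM and its IP columns 16.5 to 24.3 CPM, without overlap on the TMM scale. The IP level was 0.467 times the input level on the TMM scale (log2 −1.10 ± 0.18 SE, adjusted p = 0.00027), and the pool ratios were 0.511 (0.381 to 0.687) without and 0.430 (0.328 to 0.565) with e5UTR.

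The mevalonate enzymes among the members were not alike. Hmgcs1, the cytosolic HMG-CoA synthase at the head of the pathway, read 15, 28 and 22 counts in the input columns under the hairpin alone and 20, 16 and 27 under hairpin plus e5UTR. Its IP columns had 106, 99 and 112, then 116, 134 and 114. The highest input column, at 38.9 CPM, lay below the lowest IP column, at 52.4 CPM. The IP level of Hmgcs1 was 1.94 times the input level (log2 0.96 ± 0.16 SE, adjusted p = 0.00024), with pool ratios of 1.86 (1.42 to 2.47) and 2.02 (1.55 to 2.69).

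Idi1, which encodes the isomerase that makes dimethylallyl diphosphate, read 26, 23 and 21 counts in the input columns under the hairpin alone and 15, 21 and 26 under hairpin plus e5UTR. In IP it read 17, 26 and 41, then 36, 44 and 42. The columns of IP shGpr151 were unlike (p = 0.0053, chi-square test of these 3 columns), and input (20.8 to 36.2 CPM) and IP (8.997 to 21.69 CPM) overlapped. IP stood at 0.569 times input on the TMM scale (log2 −0.81 ± 0.21 SE, adjusted p = 0.0058). Without the IP shGpr151 pool the value was −0.60 and the call ended (adjusted p = 0.059).

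Fdps, the farnesyl diphosphate synthase at the branch between sterols and other isoprenoids, read 88, 111 and 67 counts in the input columns under the hairpin alone and 106, 92 and 99 under hairpin plus e5UTR. For IP the readings were 306, 310 and 304, then 324, 347 and 346. The input shGpr151 columns were unlike (p = 0.0043, chi-square test of these 3 columns), and all input columns (93.1 to 154 CPM) lay below all IP columns (158 to 169 CPM). The difference was small, 1.26-fold (log2 0.33 ± 0.12 SE, adjusted p = 0.036). It was not called with DESeq2 (log2 0.32, adjusted p = 0.16), without column 3 of input shGpr151 (0.26, adjusted p = 0.091), without column 2 of input with e5UTR (0.32, adjusted p = 0.05) or without either whole input pool (0.26 and 0.42, adjusted p = 0.4 and 0.15).

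Fdft1, squalene synthase and the first enzyme committed to sterols, read 35, 18 and 26 counts in the input columns under the hairpin alone and 33, 33 and 32 under hairpin plus e5UTR. In the IP columns it read 117, 103 and 92, then 113, 119 and 88. Its input (24.98 to 48.56 CPM) and IP (42.8 to 61.9 CPM) columns overlapped, and the log2 ratio of 0.39 ± 0.16 SE did not pass the test (adjusted p = 0.056). The pool ratios were 1.51 (1.17 to 1.96) without and 1.14 (0.910 to 1.45) with e5UTR. Fdft1 was called with the 12 columns as samples (log2 0.39, adjusted p = 0.011), with no filter on low counts (0.47, adjusted p = 0.031) and without any 1 of 5 columns (0.42 to 0.48, adjusted p from 0.037 to 0.048). In the GRCm38 annotation Fdft1 overlaps the lysosomal protease gene Ctsb, and the sources used here do not say how reads of overlapping genes were divided.

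Sqle encodes squalene epoxidase, a rate-limiting step of the sterol part of the pathway. It read 7, 10 and 8 counts in the input columns under the hairpin alone and 12, 14 and 10 under hairpin plus e5UTR. IP gave 83, 90 and 106, then 109, 119 and 113. The lowest IP column, at 43.9 CPM, lay above the highest input column, at 19.5 CPM. At 3.70-fold (log2 1.89 ± 0.21 SE, adjusted p = 9e-06), Sqle had the highest IP to input ratio of the 8 genes and stood at the 92.6th percentile of all tested genes. Its pool ratios were 4.26 (2.83 to 6.70) without and 3.32 (2.35 to 4.82) with e5UTR.

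Msmo1, the methylsterol monooxygenase that acts on sterols after lanosterol, went the other way. It read 538, 530 and 509 counts in the input columns under the hairpin alone and 485, 470 and 509 under hairpin plus e5UTR. The IP counts were 265, 240 and 202, then 202, 183 and 202. Input columns, at 653 to 746 CPM, and IP columns, at 88.9 to 140 CPM, did not overlap. Msmo1 was at 0.156 times the input level (log2 −2.68 ± 0.14 SE, adjusted p = 1.3e-08), the lowest ratio of the 8 genes and at a lower percentile of all tested genes than Srebf2, at the 13.0th. Sqle and Msmo1 are enzymes of the same membrane and nearby steps of 1 pathway, and their ratios lay at opposite ends of the set.

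On the TMM scale 3 members had every IP column above every input column (19.7% of all tested genes did) and 3 had every IP column below (25.8%). Insig1, whose call rests on the scaling, is among the latter, and overlap by library total was not examined. Summed over the 8 genes, the level was 2647 and 2583 CPM in the input pools and 815.5 and 752.5 CPM in IP. Without Srebf2 and Msmo1, singled out after their values were seen, the other 6 genes summed to 273 and 306 CPM in input and 359 and 373 CPM in IP.

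**Figure D2:**
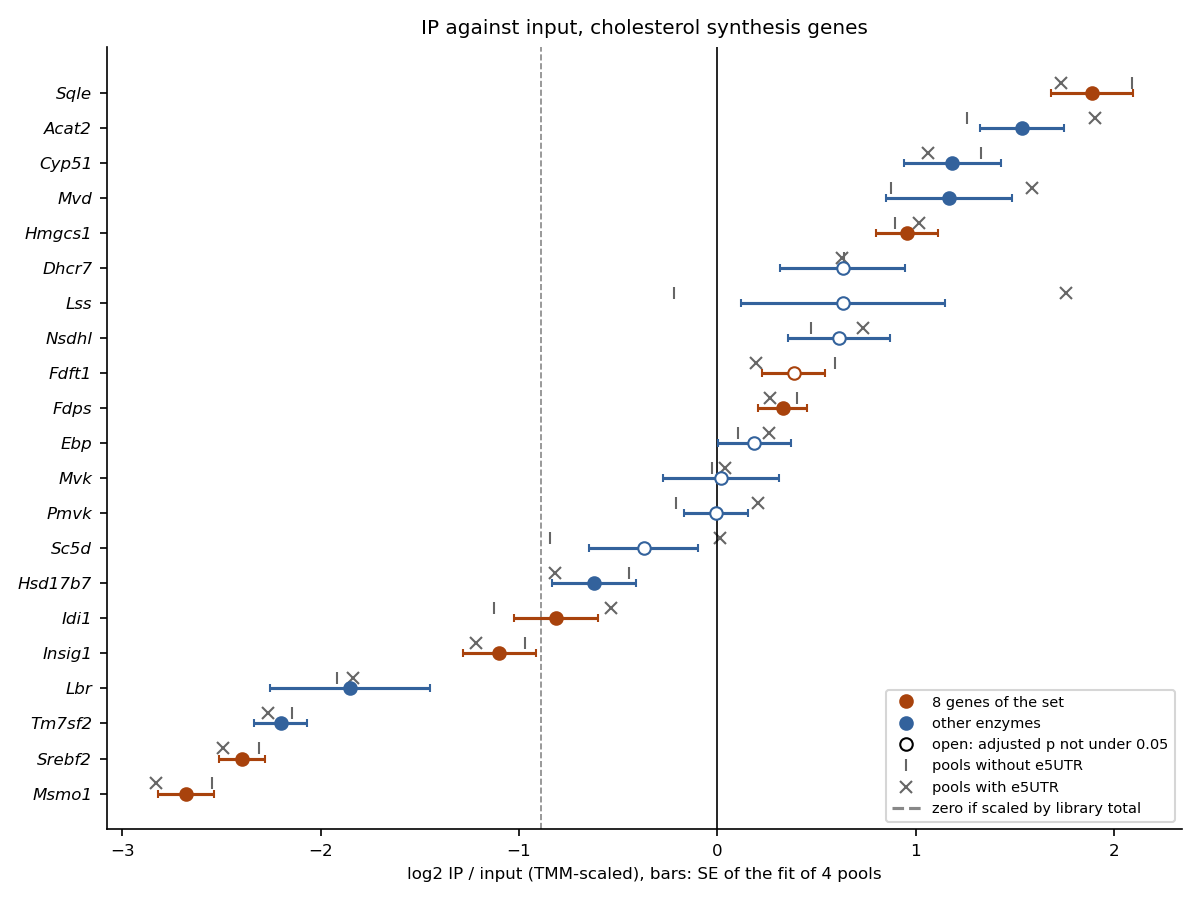
Log2 ratio of IP to input for the 8 cholesterol synthesis genes and other enzymes of the pathway, in order of the ratio. Circles with SE bars are the fit of the 4 pools, filled where the adjusted p was under 0.05, grey marks are the ratio of each pair of pools, and the dashed line shows where 0 would lie if scaled by library total. Sqle stands at the top at 1.89 and Msmo1 at the foot at −2.68.

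The 15 other enzymes of cholesterol synthesis also lay on both sides of 0, and all 15 were tested. IP was higher for 4, lower for 3 and not called for 8, with a median log2 of 0.50, against −0.24 for the 8 genes and 0.05 for all tested genes. By library total 11 were higher and 2 lower, where 6433 of all 11343 tested genes were higher and 2365 lower (median log2 0.94). The library total counts of the lists below stand against these same numbers. Acat2, the acetoacetyl-CoA thiolase of the first step, had 48 and 29 counts in input and 301 and 310 in IP (log2 1.54 ± 0.21 SE, adjusted p = 6.5e-05). Cyp51, the lanosterol demethylase whose product passes to MSMO1 by way of a sterol reductase, had 17 and 21 counts in input and 112 and 125 in IP (log2 1.19 ± 0.25 SE, adjusted p = 0.0013). Mvd, which makes isopentenyl diphosphate, was also called higher (1.17 ± 0.32). Of all 23 genes, the 8 and the 15 together, 7 were higher and 7 lower.

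Low in IP with Srebf2 and Msmo1 were the sterol reductase gene Tm7sf2, with 627 and 577 counts in input and 372 and 342 in IP (log2 −2.20 ± 0.13 SE, adjusted p = 4e-08), and Lbr, with 13 and 15 counts in input and 9 and 12 in IP (−1.85 ± 0.40 SE, adjusted p = 0.0018). Their products act at the same step as sterol reductases, and LBR is also a protein of the nuclear envelope. Hsd17b7 was lower on the TMM scale (−0.62 ± 0.21 SE, adjusted p = 0.024) and at 0.27 by library total.

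Genes of SREBP control had 6 of 13 tested members higher and 1 lower (median 0.42), and by library total 9 higher and 1 lower (median 1.30). Scap was at log2 1.32 ± 0.34 SE. Mbtps1, the protease that makes the first cut in SREBP, was at −1.47 ± 0.19 SE. Scap and Mbtps1 thus lay on either side of 0 on both scales, with 8 and 8 counts in input and 53 and 57 in IP for Scap, and 88 and 114 in input and 101 and 98 in IP for Mbtps1. Srebf1, the gene of the related factor SREBP1, was at 0.19 with an adjusted p of 0.64.

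Fatty acid synthesis genes that SREBP also controls had 4 of 15 higher and 2 lower (median 0.35), and by library total 14 higher and 1 lower (median 1.24). Acss2, an acetyl-CoA synthetase, and Fasn, fatty acid synthase, were at log2 1.495 ± 0.306 and 1.18 ± 0.20. Elovl6, a fatty acid elongase, was at −3.37 ± 0.38, with 28 and 26 counts in input and 7 and 7 in IP, while Acly, which makes cytosolic acetyl-CoA, was at −0.60 ± 0.12 but at 0.29 by library total.

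In the isoprenoid branch 2 of 11 were higher and 5 lower (median 0.32), but by library total 6 were higher and 2 lower (median 1.20). Dhdds and Dolpp1, both of dolichol metabolism, were at log2 1.58 ± 0.28 and 1.15 ± 0.43. Ggps1, which makes geranylgeranyl diphosphate from the product of FDPS, was at −2.92 ± 0.17, with 520 and 539 counts in input and 217 and 165 in IP, and Rabggta, which attaches that lipid to Rab proteins, at −2.12 ± 0.23. Farnesyl and geranylgeranyl diphosphate synthase were therefore on opposite sides of 0 on both scales.

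Uptake and transport genes had 6 of 17 higher and 4 lower (median 0.08), and by library total 10 higher and 2 lower (median 0.97). Osbp and Gramd1a, which move sterols between membranes, were at log2 1.71 ± 0.40 and 1.59 ± 0.33, and Stard4, a soluble sterol carrier, was at −1.73 ± 0.30. Apoe, the apolipoprotein that glia load with cholesterol, was at −3.10 ± 0.14, with 1354 and 1439 counts in input and 476 and 413 in IP. The list of export and esterification had 1 of 6 higher and 2 lower (median −0.29; by library total 2 and 2, median 0.59), with the sterol-sensing nuclear receptor genes Nr1h2 at 1.01 ± 0.30 and Nr1h3 at −2.56 ± 0.49 and the esterifying enzyme Soat2 at −1.97 ± 0.33.

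**Figure D3:**
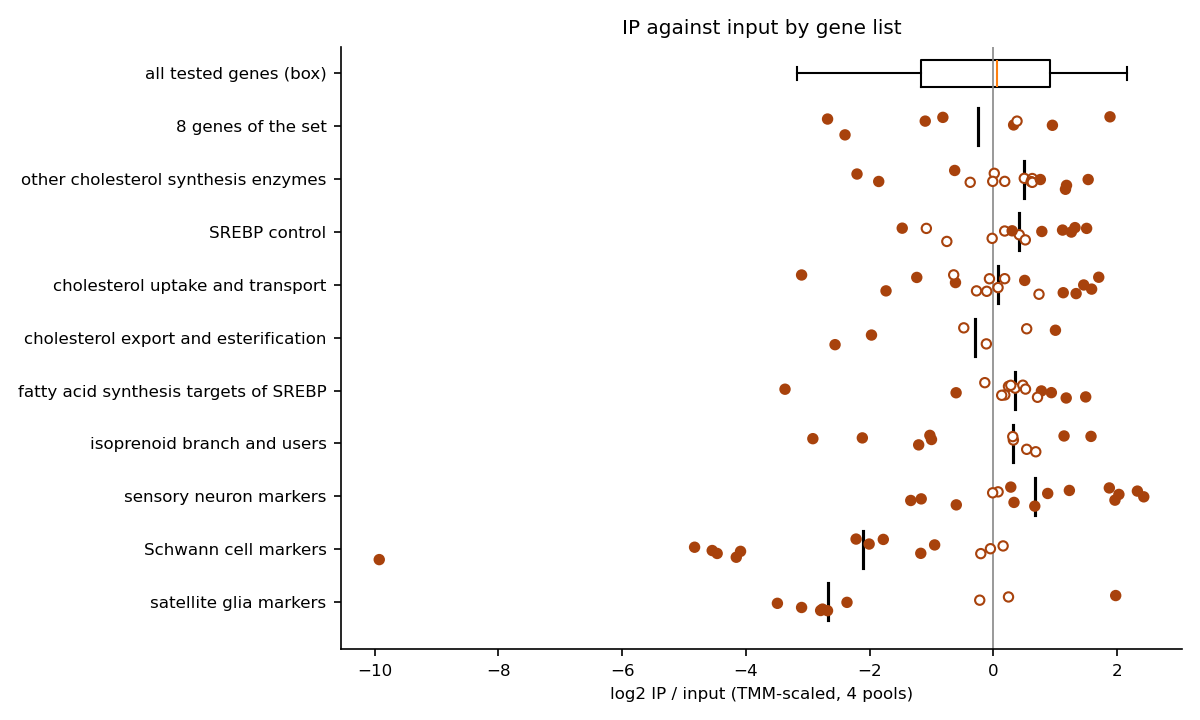
Log2 ratio of IP to input for each tested gene of the lists, with filled points where the adjusted p was under 0.05 and a black line at the list's median. The box holds the middle of all 11343 tested genes with whiskers from the 5th to the 95th percentile, and the 8 cholesterol genes run from −2.68 to 1.89, within those whiskers. Schwann cell and satellite glia markers lie mostly below 0.

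Markers of other cells moved with the fraction. Schwann cell markers had 11 of 14 lower and 0 higher (median −2.11), and their summed level was 1600 to 1679 CPM in input columns and 496 to 566 CPM in IP columns. Ncmap had 61 and 69 counts in the input pools and 0 in both IP pools, and Prx, a myelin protein gene, stood at log2 −4.83 ± 0.38. Satellite glia markers had 6 of 9 lower and 1 higher (median −2.68), with sums of 1139 to 1265 CPM in input and 302 to 331 CPM in IP. The glutamine synthetase gene Glul was at 1.98 ± 0.18. Apoe is also in the uptake list and Scd1 in the fatty acid list.

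Macrophage (8 of 11 lower, sums of 200 to 237 CPM in input and 86.3 to 104 in IP), fibroblast (5 of 7 lower, 868 to 942 and 264 to 355), endothelial (1 tested, lower, 13.9 to 34.8 and 5.29 to 14.6) and red blood cell markers (5 of 5 lower, 2248 to 2358 and 1.59 to 4.38) were also low in IP on the TMM scale. H2-Aa and Cd74 (log2 −5.77 ± 0.44 and −4.70 ± 0.47), Dcn and Lum (−4.14 ± 0.19 and −3.17 ± 0.36) and Egfl7 (−1.09 ± 0.34) led these lists. Sensory neuron markers had 10 of 15 higher and 3 lower (median 0.67, sums of 4674 to 4905 CPM in input and 9048 to 9635 in IP), with Thy1 at 2.43 ± 0.12, Scn10a at 2.33 ± 0.37, Scn9a at −1.33 ± 0.20 and Snap25 at −1.16 ± 0.13. By library total 9 Schwann cell markers were lower and 3 higher, 2 satellite glia markers were higher and 6 lower, and 12 neuronal markers were higher and 0 lower. On that scale 3 macrophage markers were higher and 5 lower, 2 fibroblast markers higher and 3 lower, all 5 red blood cell markers lower, and Egfl7 was not called. Ncmap and the red cell genes Hbb-bt and Alas2 were at 0 in both IP pools, and Cldn19, Cldn5 and Hbb-bs in 1 of them. The part of other cells in the low IP level of Srebf2, Msmo1, Insig1 and Idi1 was not tested, and in bulk RNA fewer cells of a type and less RNA per cell cannot be told apart.

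The genes with the most similar course over the 4 pools were sought among 5002 tested genes with at least 200 counts, by the distance between log2 CPM centred on each gene's mean. Srebf2 lay nearest to Topbp1 (distance 0.03), with 5798 and 5784 counts in input and 3149 and 2914 in IP, and to Matr3 (0.05). Msmo1 lay nearest to 5830487J09Rik (0.03) and then to a gene with no symbol, Hmgcs1 to Atpif1 (0.03) and Iars (0.05), Sqle to Dnpep (0.05) and Mapre3 (0.09), Fdps to Gabarap (0.02) and Pdrg1 (0.02), Fdft1 to Cadm3 (0.03) and Fads2 (0.05), Idi1 to Sdhd (0.07) and C1d (0.08), and Insig1 to Eps15l1 (0.08) and Ramp2 (0.10). No member was among the 2 nearest genes of another. Within the set the closest pair was Fdps and Fdft1 (0.14), followed by Srebf2 and Msmo1 (0.31). Likeness over 4 pools describes these pools only.

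The 2 IP pools were compared to ask how ribosome-bound RNA differed when e5UTR was added. Msmo1 and Srebf2 were lower with e5UTR, and the other 6 genes were not called. Here the test was edgeR's quasi-likelihood test over the 12 columns, with a mean for each of the 4 groups in the same model, and BH adjustment over 8085 genes, and all 8 members passed the filter. Since the columns of a group are parts of 1 pool, it compares the reads of these pools and not the conditions, and no difference with e5UTR has a replicate check. It called 10.9% of all genes (4.69% higher and 6.25% lower), against 0 higher and 2 lower of the 8 members.

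Msmo1 went from 707 counts in IP shGpr151 to 587 in IP with e5UTR, the larger library, a ratio of 0.763 (95% interval 0.683 to 0.852). Its columns held 140, 127 and 107 CPM without e5UTR and 98.2, 88.9 and 98.3 CPM with it (log2 −0.38 ± 0.09 SE, adjusted p = 0.0023, edgeR). Srebf2 went from 1866 to 1741 counts, a ratio of 0.857 (0.803 to 0.916). Its columns held 354, 330 and 304 CPM without and 279, 274 and 294 CPM with e5UTR (log2 −0.22 ± 0.06 SE, adjusted p = 0.0088, edgeR). The columns without e5UTR differed among themselves for both genes (p = 0.014 for Msmo1 and 0.028 for Srebf2, chi-square test of the 3 columns).

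Both genes were called lower under all 7 other settings and without any 1 column. The size moved when a column was left out. Without any 1 of the 6 IP columns, of either group, the ratios of all genes shifted by −0.097 to −0.088 at the median. The scaling was fitted anew each time, and the cause of this shift was not tested. Without column 3 of IP shGpr151 the log2 ratio was −0.37 for Srebf2 and −0.58 for Msmo1, and without column 3 of IP with e5UTR it was −0.34 for Srebf2. DESeq2's size factors, with a shift of −0.07, changed the calls over all genes from 379 higher and 505 lower to 184 higher and 713 lower. Marker sums of other cells in the IP pools without and with e5UTR were 547 and 513 CPM for Schwann cells, 318 and 309 CPM for satellite glia and 271 and 341 CPM for fibroblasts. Single markers went either way, with Apoe lower with e5UTR (log2 −0.32 ± 0.09, adjusted p = 0.013, edgeR) and Fabp7 (0.55 ± 0.12) and Mgp (0.52 ± 0.08) higher, and the part of other cells in the lower level of Srebf2 and Msmo1 was not tested.

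The other 6 genes had ratios of e5UTR to none in IP from 0.942 to 1.33. Idi1 was highest at 1.33 (1.00 to 1.78), with an adjusted p of 0.29 (edgeR). Without e5UTR its IP columns held 9.0, 13.8 and 21.7 CPM, and with e5UTR 17.5, 21.4 and 20.4 CPM. Sqle was at 1.12 (0.956 to 1.32), Hmgcs1 at 1.055 (0.905 to 1.23), Insig1 at 1.03 (0.788 to 1.34), Fdps at 1.02 (0.928 to 1.11) and Fdft1 at 0.942 (0.804 to 1.11), with adjusted p from 0.43 to 0.92. A p above the threshold does not show that these levels were alike, and the intervals give the changes that the counts allow.

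Among the 13 other cholesterol enzymes tested here 0 were called by edgeR and 1 had an unadjusted p under 0.05 (Sc5d, a sterol desaturase gene, ratio 1.58, 1.13 to 2.23, adjusted p = 0.072). From the remaining lists of lipid genes the test called Ggps1 (ratio 0.699, adjusted p = 0.048, edgeR) and Apoe, given above, lower and Vcp, an ATPase that extracts proteins from the endoplasmic reticulum, higher (1.14, adjusted p = 0.014, edgeR). Of the neuronal markers Stmn2 (log2 0.14 ± 0.03) and Uchl1 (0.15 ± 0.02) were higher.

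**Figure D4:**
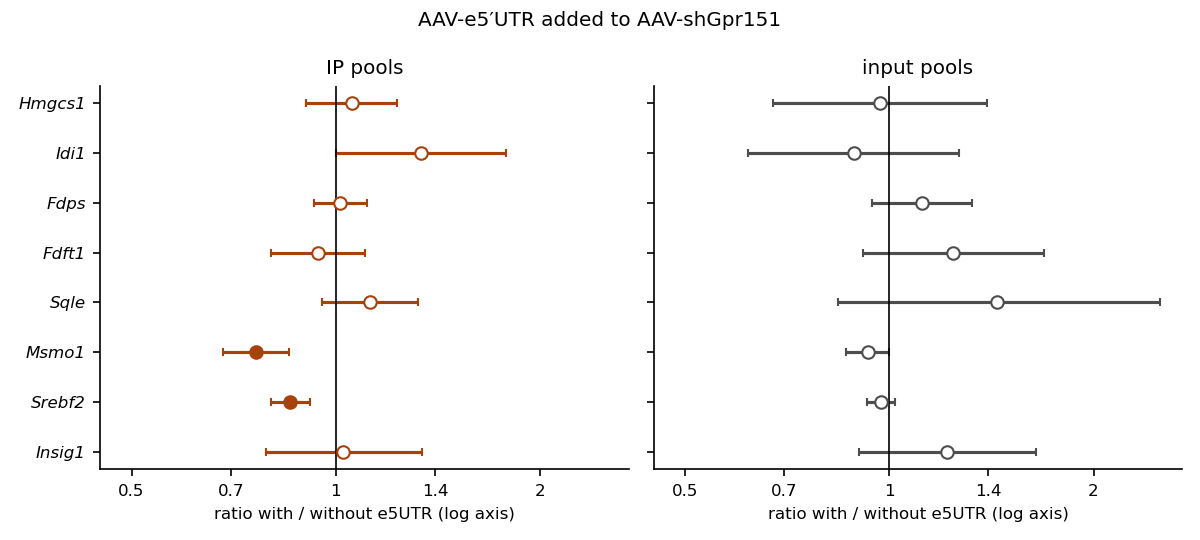
Ratio of levels with to without e5UTR (log axis) for the 8 genes in the IP pools (left) and the input pools (right), with exact binomial 95% intervals. Filled points had an adjusted p under 0.05 in the test on reads, which are Msmo1 (0.763) and Srebf2 (0.857) in IP and none in input.

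In input, 0 of the 8 genes was called with e5UTR by edgeR, 0 had an unadjusted p under 0.05, and DESeq2 and limma-voom also called 0, where 0.198% of all 8085 genes were called (0.0124% higher and 0.186% lower). Srebf2 had 3529 counts without and 3431 with e5UTR (ratio 0.973, 0.928 to 1.02) and Msmo1 1577 and 1464 (0.929, 0.865 to 0.998). Ratios of the others ran from 0.887 for Idi1 (0.620 to 1.27) to 1.44 for Sqle (0.842 to 2.51), whose 25 and 36 counts leave the widest interval.

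Whether the e5UTR difference was unlike in IP and input was tested as the interaction of fraction and e5UTR, in the same model. By edgeR 0 members passed while 2 reached an unadjusted p under 0.05, where 5.11% of all genes passed (1.57% above 0 and 3.54% below). These 2 were Msmo1 (log2 −0.28 ± 0.11 SE, adjusted p = 0.14) and Srebf2 (−0.18 ± 0.07 SE, adjusted p = 0.17). Both passed in the same edgeR test with DESeq2's size factors in place of TMM (−0.35 and −0.25, adjusted p = 0.046 and 0.03) and with DESeq2 itself (adjusted p = 0.039 and 0.038), and neither with limma-voom. Without column 3 of IP shGpr151 they were at −0.47 and −0.33 (adjusted p = 0.0023 and 0.0027, edgeR) and also passed. Both passed too without column 1 or 3 of IP with e5UTR, and Srebf2 without column 2 of IP shGpr151. Idi1 (0.59 ± 0.36 SE, adjusted p = 0.48) and Hmgcs1 (0.12 ± 0.29 SE) were the members above 0. Whether the lower level of Msmo1 and Srebf2 with e5UTR differed between IP and input thus depended on the scaling and on which column was left out.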

How the data were processed

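Per the labels' protocols, the cDNA-PCR barcoding kit SQK-PCB112.24 served to make the libraries. The submitters' processing notes name minimap2 and Salmon and GRCm39 and mm39 as builds, with no version. No source used here states counting settings or filters. The authors deposited estimated counts, as whole numbers, for 14675 Ensembl IDs in 12 columns, and 13191 IDs (89.9%) had a symbol in the name table. Columns were matched to samples by name. Nothing in the labels says that the 3 columns of a group came from separate animals, so p-values measure only the spread between columns or pools.

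Counts were summed over the 3 columns of a group for IP against input (2 residual degrees of freedom, biological coefficient of variation 10.39%). The e5UTR comparisons and the interaction used all 12 columns (2.58%). Tests were run in edgeR 4.0.16 (R version 4.3.3) with TMM factors, filterByExpr (minimum count 10, minimum total 15) and its quasi-likelihood test. A printed SE is the log2 ratio divided by the square root of the test's F statistic. DESeq2 1.42.0 and limma 3.58.1 (voom) served as alternatives. The fits were tested on simulated data. The members, the lists and the tests were chosen with earlier results of these data known. Genes named from a list were the up to 2 called higher and 2 called lower with the largest ratio in IP against input, those called with e5UTR, and any of the other cholesterol enzymes. Avil, the Cre driver's gene, and Srebf1, the relative of Srebf2, were added after their values were seen. Apart from sums of CPM, levels of different genes were not compared, since transcript lengths of the authors' build were not used here. Such sums weigh genes by their CPM. Srebf2 and Msmo1 together held 89.7% of the members' sum in the input pool without e5UTR and 88.2% with it. Some genes that enter the counts of a list are not reported here by name.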

Additional observations from a re-analysis of the deposited data

How the results depend on the processing

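For IP against input, scaling by library total gave 6433 genes higher and 2365 lower, 2 members lower, 11 other cholesterol enzymes higher, and Idi1 at 0.075, while DESeq2 gave 1927 genes and 2 other enzymes higher. The library total scale shifts every ratio by construction, and the cause of the other changes was not tested. Genes called higher with e5UTR in IP numbered 184 with DESeq2's size factors and 88 with DESeq2, and 93 to 384 when 1 column was left out. In input 2 were called higher with no filter on low counts and 0 with a mean count of at least 30, DESeq2 or limma-voom, and without 1 column 0 to 3 were higher and 9 to 17 lower. For the interaction 56 genes were higher and 364 lower with DESeq2's size factors, and 38 higher and 352 lower with DESeq2. Under each of these 2 members were lower. Without 1 column 36 to 109 genes were higher and 244 to 379 lower, with 0 to 2 members lower. With the replicate number as a replicate block, 345 genes were higher and 469 lower with e5UTR in IP, 1 and 15 in input, and 122 and 274 for the interaction, and for IP against input over 12 columns 3094 and 3054, against 3125 and 3069 without the block. Same-numbered columns did not deviate together (r from −0.315 to 0.330, over 0.1 in 5 of 18 pairs), so the numbers do not pair the columns. Depth limits Sqle, Hmgcs1, Idi1, Insig1 and Fdft1 most, since each had 101 or fewer counts in each input pool.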
